A study of Mus musculus with 10 samples.

Results

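The genes described here encode 6 secreted ligands of the activin and TGF-beta branch of the TGF-beta superfamily and 4 secreted proteins that bind such ligands or belong to the same protein families. They were chosen by name, as 10 of the 23337 genes in the count table, with the knockout against heterozygote difference already known: Inhba and Tgfb2 were picked out because they were among the largest rises. Their values in that comparison are therefore given as a description, with no test. The ligands are Inhba, Inhbb, Tgfb1, Tgfb2, Tgfb3 and Mstn, and the binding proteins are Fst, Fstl1, Fstl3 and Ltbp2.

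RNA with poly(A) tails was sequenced from sorted cardiomyocytes, the contracting cells of heart muscle. Their mice had floxed Actn2, which encodes alpha-actinin-2, a protein of the sarcomeric Z-line. The knockout group (Actn2F/F) had 2 floxed alleles and the heterozygote group (Actn2F/+) had 1 floxed and 1 normal allele, with 5 animals in each. Every animal of both groups received AAV9-cTNT-Cre on postnatal day 1, a virus in which a troponin T promoter, active in cardiomyocytes, drives the recombinase Cre. The hearts were dissociated at postnatal day 14. The heterozygotes thus also carry Cre and 1 allele that Cre can cut, and no animal without Cre was included. The labels name no marker used in the sort.

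As background, the ligands are made as precursors whose propeptide is cut off by proteases such as furin, and the mature parts pair through a cysteine bond. Pairs of the beta A subunit encoded by Inhba form activin A, pairs of the beta B subunit encoded by Inhbb form activin B, and a pairing with the alpha subunit encoded by Inha gives inhibin. TGF-beta is stored in the matrix in a latent complex with its propeptide and a latent TGF-beta binding protein. Activins, myostatin and TGF-beta signal through pairs of type II and type I receptor kinases to the transcription factors SMAD2 and SMAD3, while bone morphogenetic proteins signal through SMAD1, SMAD5 and SMAD9. Follistatin (Fst) and the follistatin-like protein FSTL3 wrap around activins and myostatin and block their receptor sites. In the heart these ligands are known for their part in valve and trabecula development, in hypertrophy and in the activation of fibroblasts.

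The regions upstream of the start sites of 3 members that differed most between the groups, and of Tgfb1, which did not, show how unlike the promoters of this family are. They are taken from the RefSeq promoter table of build GRCm38.p6, which has an entry for 8 of the 10 members. Each line gives the 250 bases before the start, 5′ to 3′, in the direction of the gene. Capitals mark matches, on either strand, to the TATA box (TATAAA), the E-box (CACGTG), the core of the cAMP response element (TGACG) and the MEF2 site.
Inhba, chr13:16011601-16011850, plus strand: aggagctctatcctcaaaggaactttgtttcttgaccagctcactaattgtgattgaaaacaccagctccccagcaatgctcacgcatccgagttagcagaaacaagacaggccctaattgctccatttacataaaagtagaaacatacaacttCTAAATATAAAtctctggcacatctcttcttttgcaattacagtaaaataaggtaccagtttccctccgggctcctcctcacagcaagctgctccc
Tgfb2, chr1:186705990-186706239, minus strand: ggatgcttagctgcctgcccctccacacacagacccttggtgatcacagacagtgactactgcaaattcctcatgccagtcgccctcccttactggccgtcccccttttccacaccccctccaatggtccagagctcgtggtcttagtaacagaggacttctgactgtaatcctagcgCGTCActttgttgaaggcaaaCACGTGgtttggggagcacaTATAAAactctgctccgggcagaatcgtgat
Fstl3, chr10:79777024-79777273, plus strand: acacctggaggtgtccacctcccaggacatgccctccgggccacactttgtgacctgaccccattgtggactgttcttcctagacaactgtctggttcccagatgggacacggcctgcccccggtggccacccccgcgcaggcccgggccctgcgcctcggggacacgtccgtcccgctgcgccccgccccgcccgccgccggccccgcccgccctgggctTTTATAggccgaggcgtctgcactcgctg
Tgfb1, chr7:25686752-25687001, plus strand: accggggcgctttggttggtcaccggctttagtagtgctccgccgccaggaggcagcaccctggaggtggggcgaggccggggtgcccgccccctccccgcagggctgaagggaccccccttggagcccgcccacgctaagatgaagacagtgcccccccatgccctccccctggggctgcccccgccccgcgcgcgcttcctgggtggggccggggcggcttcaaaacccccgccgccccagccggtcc

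In these windows, extended to 50 bases after the start, the 300 bases were 47.7% G and C for Inhba, 54.3% for Tgfb2, 70.7% for Fstl3 and 77% for Tgfb1. The median of the 32851 windows in the table was 52.7%. Inhba held a MEF2 site from base -96 to base -87, which overlaps a TATAAA match from -91 to -86. Tgfb2 held TATAAA from -31 to -26, CACGTG from -51 to -46 and TGACG on the opposite strand from -72 to -68. Fstl3 held TATAAA on the opposite strand from -29 to -24, and none of these 4 motifs matched in the Tgfb1 window. Over all windows, TATAAA matched in 13.6%, CACGTG in 7.15%, TGACG in 20.8% and the MEF2 site in 3.19%. Of the other 6 motifs searched on both strands, the short SMAD motif CAGAC, present in 49.6% of all windows, matched in Tgfb2, Fstl3, Mstn and Ltbp2. The AP-1 site TGANTCA (7.81% of windows) matched in Mstn. The full cAMP response element TGACGTCA (which contains TGACG, 1.79%), the SMAD palindrome GTCTAGAC (0.213%), the TEAD site GGAATG (14.7%) and the CArG box (1.63%) matched in none of the 8 windows. A match is only a run of letters. The Inhba start of this table lies 2624 bases upstream of the first base of Inhba in the annotation used for counting, and the other 7 starts lie within 23 bases of theirs.

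Total counts per sample ran from 8086656 to 25237696, the highest being that of heterozygote 1. Actn2 was at 1145 to 1286 CPM in the knockouts and at 2677 to 3474 CPM in the heterozygotes, so every library lay on the side its label gives (CPM are read counts scaled to library size). The log2 fold change of Actn2 was -1.39 (SE 0.0910, edgeR's quasi-likelihood test, adjusted p 3.48e-07). Heterozygote 3 stood apart in interferon-response genes, with a sum of 138 CPM over 8 such genes against 6.93 to 16.2 CPM in the other libraries. Cardiomyocyte markers summed to 96631 to 121699 CPM in the knockouts and 102117 to 124967 CPM in the heterozygotes. Markers of other cells were present at lower levels. Of 10 endothelial markers, 2 were called lower in the knockout, beside 8.64% of all tested genes. All 10 had negative log2 fold changes, from -0.76 to -0.38. The sum of the 10 was 417 to 746 CPM in the knockout against 667 to 1176 CPM in the heterozygote, and the ranges overlapped. Fibroblast markers summed to 356 to 692 CPM in the knockouts and 372 to 574 CPM in the heterozygotes. Macrophage markers summed to 8.03 to 10.7 CPM in the knockouts and 13.4 to 37.0 CPM in the heterozygotes.

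Across 11870 tested genes, 18.9% were called at an adjusted p below 0.05, 10.2% higher and 8.64% lower in the knockout. Of the called genes 54.3% were higher, a share that was 68.9% when library totals alone set the scale. Of the 10 members, 7 passed the filter on low counts, and 5 of these 7 were called, all higher in the knockout (Inhba, Tgfb2, Tgfb3, Fstl1 and Fstl3). With a mean endothelial marker score as a covariate Fstl1 was not among the calls, at a log2 difference of 0.83 (SE 0.25). Nothing is read from these counts, since this contrast chose the members. Among the 7 that passed, the groups did not overlap for Inhba, Tgfb2, Tgfb3 and Fstl3, all higher in the knockout. This was so for 8.41% of all tested genes, with a further 6.32% not overlapping and lower. Fst, which is not among the tested genes, did not overlap either and was higher in the knockout.

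**Figure D1:**
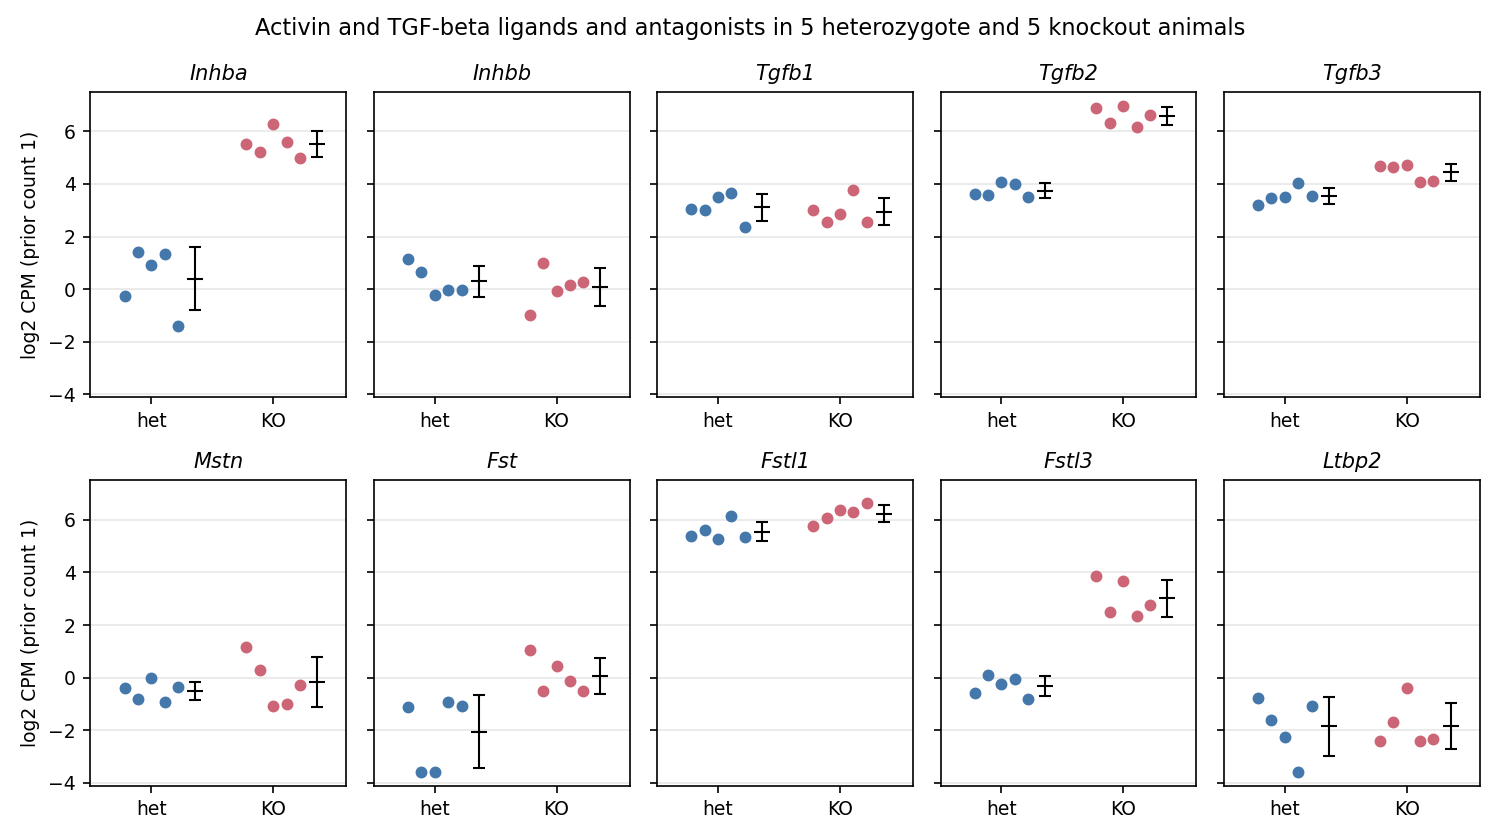
Log2 CPM (prior count 1) of the 10 genes in each of 5 heterozygotes (het, blue) and 5 knockouts (KO, red). Points are animals in order of replicate number, and black bars are the mean and SD on this scale. The lowest points of Fst and Ltbp2 are libraries with 0 counts. Inhba, Fstl3 and Tgfb2 stand furthest apart, and Fstl1, Tgfb1, Inhbb, Mstn and Ltbp2 overlap.

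Inhba, the gene of the activin beta A subunit, lies on chromosome 13 at 16014475 to 16027211 of mm10, plus strand. It was at 45.4, 36.7, 77.4, 47.7 and 31.6 CPM in knockouts 1 to 5 and at 0.756, 2.58, 1.79, 2.44 and 0.295 CPM in heterozygotes 1 to 5. The heterozygote values rest on 3 to 22 reads per library, against 436 to 793 in the knockouts. The lowest knockout, at 31.6 CPM, lay far above the highest heterozygote, at 2.58 CPM. The log2 fold change was 5.06 (SE 0.39), the fifth highest of all tested genes, and ranged from 4.77 to 5.32 over fits without 1 animal. The heterozygotes varied more in proportion to their mean than the knockouts, with a coefficient of variation of 64.5% against 37.2%.

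Inhba lies 3.67 Mb from Actn2 on the same chromosome, so the 2 genes are linked in the cross. Of the 25 other tested genes within 5 Mb of Actn2, 1 was called (4%, beside 18.9% of all tested genes), and it rose. This was Ggps1, an enzyme of isoprenoid synthesis (log2 fold change 0.47, edgeR adjusted p 0.0056). Gli3, the tested gene nearest to Inhba on the side of Actn2, had a log2 fold change of -0.70 that did not pass (edgeR adjusted p 0.154). The window and these genes were chosen after their values were seen.

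Inhbb, the gene of the beta B subunit, lies on chromosome 1 at 119415465 to 119422248. It was at 0.416, 1.91, 0.878, 1.03 and 1.13 CPM in knockouts 1 to 5 and at 2.14, 1.47, 0.769, 0.888 and 0.886 CPM in heterozygotes 1 to 5, from 4 to 51 reads. The groups overlapped. Its log2 fold change of -0.24 (SE 0.41) was 0.13 without heterozygote 1, the library with the most Inhbb reads. Of the summed beta subunit level per length, Inhba made up 98.2% to 99.7% in the knockouts and 48.1% to 88.4% in the heterozygotes, where both subunits were near the lower limit of the counts.

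Tgfb2 lies on chromosome 1 at 186623186 to 186705992, minus strand, and encodes the TGF-beta isoform best known from heart valve and outflow tract formation. It was at 118, 79.2, 125, 71.0 and 99.02 CPM in knockouts 1 to 5 and at 12.1, 11.8, 16.7, 15.98 and 11.1 CPM in heterozygotes 1 to 5. Within each group the spread was small beside the gap, with coefficients of variation of 23.8% and 19.1%. The log2 fold change was 2.87 (SE 0.18), with a range of 2.77 to 2.96 over fits without 1 animal.

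Tgfb3 lies on chromosome 12 at 86056743 to 86079041 and encodes the third TGF-beta isoform. It was at 25.5, 24.9, 25.9, 16.7 and 17.4 CPM in knockouts 1 to 5 and at 9.03, 10.9, 11.1, 16.1 and 11.6 CPM in heterozygotes 1 to 5. Knockouts 4 and 5 lay just above heterozygote 4, while the other knockouts stood clear of all heterozygotes. The log2 fold change was 0.92 (SE 0.18).

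Tgfb1 lies on chromosome 7 at 25687002 to 25704996 and encodes the isoform best known from blood platelets, leukocytes and fibrosis. It was at 8.02, 5.73, 7.12, 13.6 and 5.71 CPM in knockouts 1 to 5 and at 8.27, 7.86, 11.1, 12.7 and 5.02 CPM in heterozygotes 1 to 5. The groups overlapped over nearly their whole range, with a log2 fold change of -0.17 (SE 0.28). The animal with the most Tgfb1 in each group, replicate 4, also had the highest mean log2 CPM of the endothelial markers in its group, 5.80 in the knockout and 6.43 in the heterozygote. With that marker score as a covariate, the log2 difference of Tgfb1 was 0.48 (SE 0.26). In bulk RNA, fewer cells of a type and less RNA per cell cannot be told apart.

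**Figure D2:**
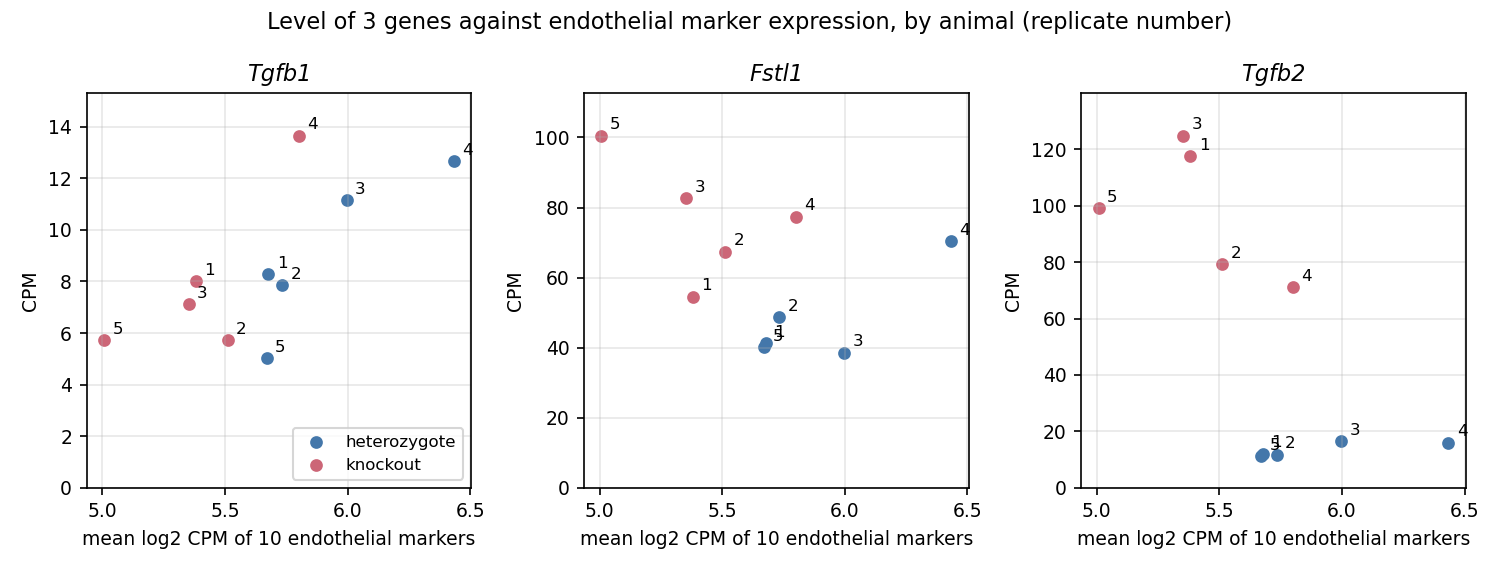
CPM of Tgfb1, Fstl1 and Tgfb2 (vertical axes, from 0) against the mean log2 CPM of 10 endothelial markers in each animal. Numbers are replicate numbers, blue is heterozygote and red is knockout. Replicate 4 of each group is high on both axes for Tgfb1, and for Tgfb2 every knockout is at 71.0 CPM or more and every heterozygote at 16.7 CPM or less. Only knockout 4 has a marker score inside the heterozygote range.

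The balance of the 3 TGF-beta isoforms was taken from counts divided by gene length, as CPM per kilobase of exon, since only that scale lets genes be compared. In the heterozygotes the share of Tgfb2 in the sum of Tgfb1, Tgfb2 and Tgfb3 was 27.2% ± 2.14 (SD, n = 5), below Tgfb1 with 39.7% ± 6.02 and Tgfb3 with 33.1% ± 5.73. In the knockouts the share of Tgfb2 was 66.2% ± 6.53, with Tgfb3 at 21.0% ± 3.77 and Tgfb1 at 12.8% ± 6.64. Knockout shares of Tgfb2 ran from 56.7% to 72.7% and heterozygote shares from 23.9% to 29.0%. Knockout 4, with the lowest Tgfb2 share of its group, had the highest Tgfb1 share at 24.6%, against 10.6% or less in the other knockouts.

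Mstn, the gene of myostatin, a brake on muscle growth, lies on chromosome 1 at 53061663 to 53068079. It was at 2.19, 1.15, 0.390, 0.411 and 0.736 CPM in knockouts 1 to 5 and at 0.672, 0.491, 0.897, 0.444 and 0.689 CPM in heterozygotes 1 to 5, from 4 to 21 reads per library. Knockouts 1 and 2 lay above all heterozygotes and knockouts 3 and 4 below all of them. The gene did not pass the filter on low counts.

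Summed over the 6 ligand genes, the level per length was 63.0 ± 15.7 CPM per kilobase in the knockouts and 12.2 ± 2.87 CPM per kilobase in the heterozygotes (SD, n = 5). The lowest knockout had 50.01 and the highest heterozygote 16.2 CPM per kilobase. Inhba took 48.6% ± 6.64 of the knockout sum and 7.94% ± 4.73 of the heterozygote sum. Tgfb2 took 33.5% ± 6.27 and 23.8% ± 2.54, and its ranges of 25.9% to 41.9% and 20.9% to 26.6% overlapped.

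**Figure D3:**
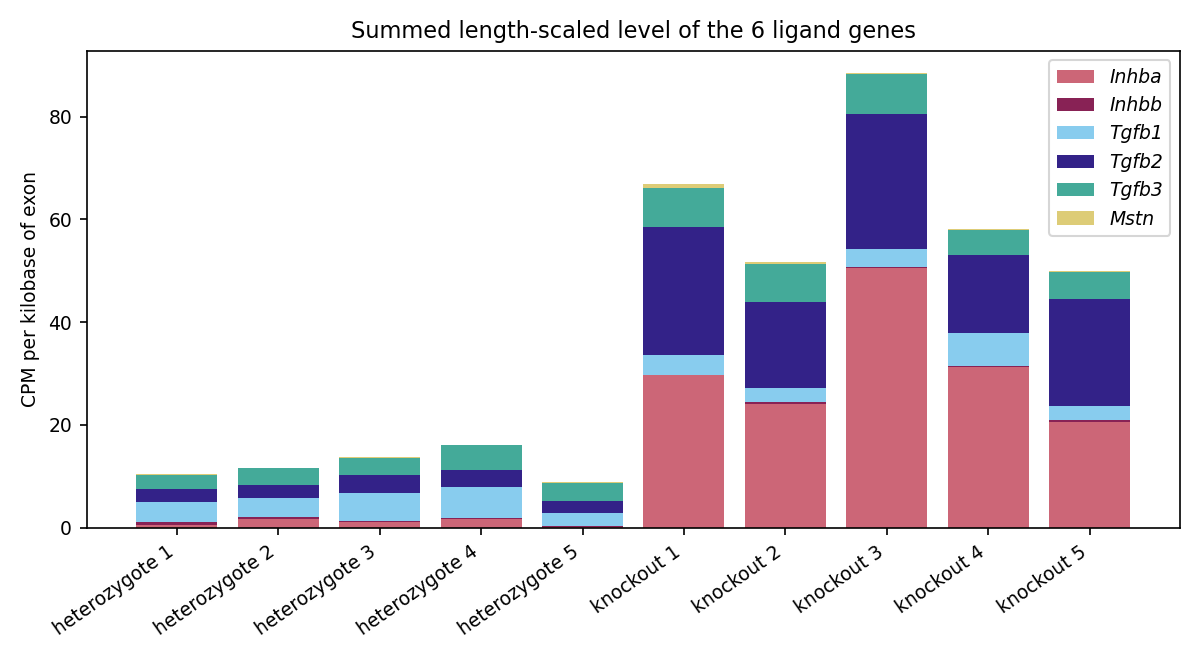
Stacked bars of the level per length (CPM per kilobase of exon) of the 6 ligand genes in each of the 10 animals. The 5 knockouts reach 50.01 to 88.4 and the 5 heterozygotes 8.84 to 16.2 CPM per kilobase, and Inhba and Tgfb2 fill most of each knockout bar.

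Among the antagonists, Fstl3 (chromosome 10, 79777274 to 79782630, plus strand) encodes a secreted glycoprotein that binds activins and myostatin. It was at 14.5, 5.50, 12.6, 4.93 and 6.73 CPM in knockouts 1 to 5 and at 0.588, 0.982, 0.769, 0.888 and 0.492 CPM in heterozygotes 1 to 5. Heterozygote libraries held 5 to 14 reads and knockout libraries 48 to 139. The log2 fold change was 3.60 (SE 0.37), and the lowest knockout, at 4.93 CPM, stood clear of the highest heterozygote, at 0.982 CPM. Fstl3 shares exon sequence with Prss57 in the annotation, and reads that overlap both genes were counted for neither. Knockouts 1 and 3, with the most Fstl3, were also the ones with the most Tgfb2, while Inhba was highest in knockouts 3 and 4.

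Fst, the gene of follistatin itself, is on the same chromosome as Actn2 but 102 Mb away (13, 114452262 to 114458730). It was at 1.98, 0.611, 1.27, 0.821 and 0.622 CPM in knockouts 1 to 5, from 8 to 19 reads. In the heterozygotes it was at 0.378, 0, 0, 0.444 and 0.394 CPM, from 0 to 9 reads, where the 0 counts of heterozygotes 2 and 3 allow up to 0.368 and 0.384 CPM. All knockouts lay above all heterozygotes, at levels that did not pass the filter on low counts. Over the 5 libraries of each group the reads came to 59 and 17.

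The summed level per length of the activin subunits Inhba and Inhbb was 31.5 ± 11.6 CPM per kilobase in the knockouts against 1.32 ± 0.651 in the heterozygotes (SD, n = 5). That of the 2 activin-binding antagonists Fst and Fstl3 was 4.98 ± 2.47 and 0.485 ± 0.0985 CPM per kilobase. The ratio of subunits to antagonists was 3.61, 7.95, 7.27, 10.9 and 5.63 in knockouts 1 to 5 and 2.16, 4.04, 3.44, 2.80 and 0.954 in heterozygotes 1 to 5. The ranges overlapped through knockout 1, which had the most Fst and Fstl3, and heterozygote 2.

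Fstl1 (chromosome 16, 37777055 to 37836516) encodes a follistatin-like glycoprotein of the heart and its outer layer. It was at 54.6, 67.4, 82.6, 77.4 and 100.5 CPM in knockouts 1 to 5 and at 41.4, 48.7, 38.6, 70.4 and 40.2 CPM in heterozygotes 1 to 5. Only heterozygote 4 reached into the knockout range, above knockouts 1 and 2. The log2 fold change was 0.68 (SE 0.18). It was 0.86 without heterozygote 4. Fstl1 was highest in knockout 5, the library with the lowest endothelial score of all, and among the heterozygotes in replicate 4, the one with the highest.

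Ltbp2 (chromosome 12, 84783212 to 84876495) encodes a matrix protein of the latent TGF-beta binding family that itself is known for binding fibrillin rather than TGF-beta. It had 1 to 7 reads in the knockouts and 0 to 12 in the heterozygotes, or 0.246 ± 0.250 and 0.254 ± 0.201 CPM (SD, n = 5). The groups overlapped and the gene did not pass the filter on low counts. It shares exon sequence with D030025P21Rik.

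Per length, the order of the 10 genes differed between the groups. In the heterozygotes Fstl1 came first with 13.3 ± 3.65 CPM per kilobase (SD, n = 5), and its lowest value lay above all others. Tgfb1 (4.29 ± 1.43), Tgfb3 (3.48 ± 0.772) and Tgfb2 (2.87 ± 0.546) followed, and each overlapped the next. Inhba (1.03 ± 0.663), Fstl3 (0.381 ± 0.104), Inhbb (0.289 ± 0.136), Mstn (0.238 ± 0.0672), Fst (0.104 ± 0.0955) and Ltbp2 (0.0385 ± 0.0305) came after a gap, again each overlapping the next.

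In the knockouts Inhba came first with 31.2 ± 11.6 CPM per kilobase, and overlapped Fstl1 (21.2 ± 4.75) and Tgfb2 (20.8 ± 4.95). A gap separated these from Tgfb3 (6.53 ± 1.37), Fstl3 (4.53 ± 2.24) and Tgfb1 (3.84 ± 1.57), which overlapped in that order. A further gap came before Fst (0.454 ± 0.247), Mstn (0.363 ± 0.277), Inhbb (0.252 ± 0.127) and Ltbp2 (0.0373 ± 0.0378).

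Other genes of the pathway were taken from 6 lists of 115 genes in all, of which 76 passed the filter on low counts. In edgeR's test 17 of the 76 were called higher in the knockout and 1 lower, which is 23.7% against 18.9% of all tested genes. By list, the share called ran from 21.1% to 33.3%, each list holding 6 to 19 tested genes. The median log2 fold change of the 76 was 0.12, against 0.0023 over all genes. With the endothelial marker score as a covariate 9 were called, and over the fits without 1 animal the count was 15 to 20. None of the 17 genes named by rule from these lists (up to 4 called rises and 4 called falls per list) changed sign under any scaling tried. Other list genes given below by name are not covered by this statement.

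**Figure D4:**
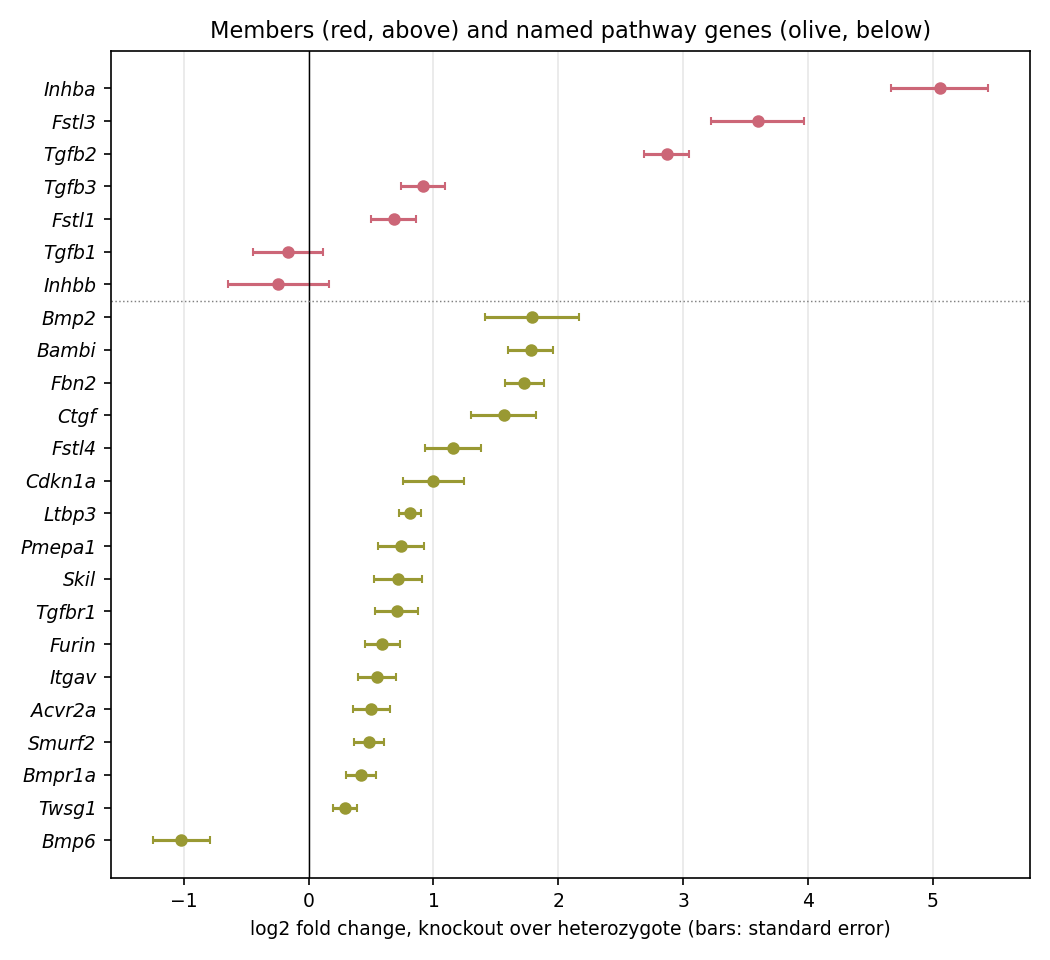
Log2 fold change of knockout over heterozygote (points) with its standard error (bars) for the 7 members that passed the filter (red) and for the 17 named pathway genes (olive). The red points are a description of genes chosen on this contrast. Inhba, Fstl3 and Tgfb2 lie to the right of all pathway genes, of which only Bmp6 lies below 0.

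Of 11 tested receptor and co-receptor genes, 3 were called by edgeR and all 3 rose. Tgfbr1, the type I receptor kinase of TGF-beta, went from 26.8 ± 6.71 to 43.9 ± 7.26 CPM (SD, n = 5), a log2 difference of 0.71 (SE 0.17, adjusted p 0.0100). Acvr2a, a type II receptor of activins and myostatin, went from 35.3 ± 7.30 to 50.2 ± 7.06 CPM (0.50, SE 0.15, adjusted p 0.0285). Bmpr1a, a type I receptor of bone morphogenetic proteins, went from 230.3 ± 40.9 to 308 ± 27.8 CPM (0.42, SE 0.12, adjusted p 0.0274). The type II receptor of TGF-beta, Tgfbr2, was at 23.4 ± 4.05 and 20.7 ± 2.10 CPM in heterozygote and knockout (edgeR adjusted p 0.402). The endothelial co-receptor Eng was at 73.9 ± 21.6 and 52.3 ± 8.50 CPM (edgeR adjusted p 0.0741). The endothelial marker sums given above were lower on average in the knockout but overlapped. The markers of that list all had negative log2 fold changes. Their part in the level of Eng was not tested. The Acvr2a call was lost without heterozygote 3 (adjusted p 0.0548), knockout 2 (0.0718), knockout 3 (0.0660) or knockout 4 (0.0687), over a range of 0.0132 to 0.0718 in all settings. The Bmpr1a call was lost without heterozygote 4 (0.0563), knockout 2 (0.0746) or knockout 4 (0.0554), over a range of 0.0111 to 0.179, and without knockout 2 or knockout 4 only 1 receptor gene was called. With the endothelial covariate the log2 differences were 0.51 for Tgfbr1 (SE 0.22, edgeR adjusted p 0.180), 0.64 for Acvr2a (SE 0.19, 0.0509) and 0.39 for Bmpr1a (SE 0.17, 0.179).

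Among 17 tested SMAD genes and regulators, all 5 that passed edgeR's test rose. The largest rise was that of Bambi, a decoy receptor without a kinase domain, from 43.8 ± 10.4 to 151 ± 35.3 CPM (SD, n = 5), a log2 difference of 1.78 (SE 0.18, edgeR adjusted p 1.68e-05). Pmepa1, which keeps SMAD2 and SMAD3 from the receptor, went from 15.1 ± 3.58 to 25.1 ± 5.81 CPM (0.74, SE 0.19, adjusted p 0.0124). With the endothelial covariate the log2 difference of Pmepa1 was 0.73 (SE 0.26, edgeR adjusted p 0.0992). Skil, a SMAD corepressor, went from 27.4 ± 7.37 to 45.0 ± 11.03 CPM (0.71, SE 0.19, adjusted p 0.0171). Smurf2, a ubiquitin ligase of the pathway, went from 29.1 ± 4.88 to 40.8 ± 3.40 CPM (0.49, SE 0.12, adjusted p 0.0116). The fifth was Smad5, a transducer of bone morphogenetic proteins, with a log2 fold change of 0.37 (edgeR adjusted p 0.0475). Smad5 failed without heterozygote 1 (0.0941), 2 (0.0719) or 3 (0.0677) and without knockout 2 (0.105), 3 (0.0719), 4 (0.0712) or 5 (0.118). It also failed with RLE (0.0539) and upper-quartile scaling (0.0674), without the filter (0.0518), with voom (0.0611) and with the endothelial covariate (0.186), over a range of 0.0300 to 0.186. The transducers Smad2 (0.31, edgeR adjusted p 0.0663), Smad3 (-0.0045, 0.987) and Smad4 (0.024, 0.903) and the feedback inhibitor Smad7 (0.11, 0.788) did not pass, and were named after their values were seen.

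In the list for latency, activation and processing, 19 genes were tested, and all 4 that passed rose. Fbn2, which encodes the fetal microfibril protein fibrillin-2, went from 29.1 ± 5.55 to 96.2 ± 20.1 CPM (SD, n = 5), a log2 difference of 1.73 (SE 0.16, edgeR adjusted p 6.47e-06). Ltbp3, whose product holds latent TGF-beta in the matrix, went from 39.1 ± 3.34 to 68.6 ± 3.19 CPM (0.81, SE 0.087, adjusted p 2.29e-05). Furin, the protease that cuts the ligand precursors, went from 153 ± 32.2 to 231 ± 26.5 CPM (0.59, SE 0.14, adjusted p 0.00891). With the endothelial covariate the log2 difference of Furin was 0.35 (SE 0.17, edgeR adjusted p 0.236). Itgav, the alpha V subunit of integrins that release TGF-beta, went from 24.5 ± 4.89 to 36.0 ± 5.85 CPM (0.55, SE 0.15, adjusted p 0.0208), a call lost without knockout 2 (0.0596) and with the endothelial covariate (0.0709), over a range of 0.00717 to 0.0709. With that covariate the log2 difference of Itgav was 0.64 (SE 0.21). Of the genes of the other latent TGF-beta binding proteins, Ltbp1 was at 132 ± 25.7 and 144 ± 24.9 CPM in heterozygote and knockout (edgeR adjusted p 0.617) and Ltbp4 at 227 ± 48.2 and 178 ± 38.4 CPM (0.173).

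Of 23 other ligand genes of the superfamily only 6 passed the filter, and 1 rose and 1 fell. Bmp2 went from 0.753 ± 0.411 to 2.70 ± 0.866 CPM (SD, n = 5), a log2 difference of 1.79 (SE 0.38, edgeR adjusted p 0.00447). Its level was near the lower limit of the counts in heterozygotes 4 and 5, where 0.333 and 0.295 CPM are 3 reads each. Bmp6, known as a ligand made by endothelial cells, fell from 6.49 ± 1.28 to 3.17 ± 0.853 CPM (-1.02, SE 0.23, adjusted p 0.00616). The endothelial marker sum was lower on average in the knockout, with overlapping ranges. With the endothelial marker score as a covariate the log2 difference of Bmp6 was -0.74 (edgeR adjusted p 0.144) and that of Bmp2 was 1.22 (0.118). Inha, the inhibin alpha subunit that can pair with the product of Inhba, was at 6.02 ± 2.07 and 10.2 ± 3.28 CPM in heterozygote and knockout and did not pass (edgeR adjusted p 0.0670).

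Besides the members, 8 antagonists and binding proteins were tested, and both that passed rose. Fstl4, a follistatin-like gene, went from 10.6 ± 4.08 to 23.9 ± 2.79 CPM (SD, n = 5), a log2 difference of 1.16 (SE 0.22, edgeR adjusted p 0.00249). Twsg1, which encodes a protein that binds bone morphogenetic proteins, went from 168 ± 18.2 to 206 ± 12.9 CPM (0.29, SE 0.096, adjusted p 0.0456). Of the 10 fits without 1 animal, Twsg1 passed only in that without heterozygote 3 (edgeR adjusted p 0.0359), and in the other 9 the adjusted p was 0.0549 to 0.111. It also failed with RLE and upper-quartile scaling (0.0543 and 0.0684) and without the filter (0.0581), over a range of 0.0189 to 0.225 in all settings.

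All 5 of the 19 tested textbook SMAD2 and SMAD3 target genes that passed edgeR's test rose. Bambi, Pmepa1 and Skil, described above, are 3 of them. Ctgf, which encodes connective tissue growth factor, was at 400.4, 379.7, 649.9, 387 and 227 CPM in knockouts 1 to 5 and at 149, 85.8, 211, 135 and 111 CPM in heterozygotes 1 to 5, with no overlap (log2 fold change 1.56, SE 0.26, edgeR adjusted p 0.000833). Cdkn1a, an inhibitor of the cell cycle, went from 70.8 ± 21.8 to 141 ± 43.1 CPM (SD, n = 5), a log2 difference of 1.00 (SE 0.24, adjusted p 0.0104). The matrix targets Col1a1, Col1a2, Col3a1, Postn, Fn1 and Tgfbi did not pass edgeR's test. Their log2 fold changes were 0.23, 0.06, -0.08, -0.30, -0.33 and -0.51. Col1a1, Col1a2 and Col3a1 are also on the fibroblast marker list, so its overlapping sums given above are no separate measure. The matrix targets were named after their values were seen.

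The animals also differed within their groups, and genes were sought whose deviations from the group means followed those of Inhba or Tgfb2 over the 10 samples. The 8365 candidates had a mean of 10 CPM or more, and those most like Inhba were Cxcl12 (Pearson r 0.96), Tnfrsf12a (0.94), Fam58b (0.92), Pkd1 (0.92) and Taok3 (0.91). Those most like Tgfb2 were Trim47 (0.96), Nt5c2 (0.95), Trio (0.92), Nin (0.91) and 2310004N24Rik (0.89). These values describe the best of many genes over few samples and share the depth and scaling of each library.

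Between the groups, Tnfrsf12a, the receptor of the cytokine TWEAK, went from a mean of 98.95 to 331 CPM (log2 fold change 1.74, SE 0.23, edgeR adjusted p 0.000152). Trim47 (1.22, adjusted p 0.00104), Nt5c2 (0.88, 9.93e-06), Taok3 (0.77, 0.00895) and Trio (0.72, 0.00249) rose as well. Cxcl12, the gene of a chemokine, rose by 0.56 (adjusted p 0.0201), a call lost without heterozygote 1 (0.0511) or knockout 3 (0.0509), over a range of 0.00208 to 0.0511. Fam58b, Pkd1, Nin and 2310004N24Rik did not pass, with log2 fold changes of -0.21, 0.13, 0.16 and 0.17.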

How the data were processed

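Poly(A) RNA of sorted cardiomyocytes from 10 mice was sequenced. Per the labels' protocols, 10 ng of total RNA was amplified by 8 PCR cycles (SMART-Seq, which does not mark strand) and libraries were made from 500 pg of cDNA with Nextera XT. Per the file headers, the authors made the deposited counts, whole numbers of reads per gene, with featureCounts 1.5.1 against a UCSC mm10 annotation of 2012, with no option beyond the number of threads. The submitters' processing notes name STAR 2.5.3a and Subread 1.5.2. By default featureCounts leaves out multi-mapped reads and reads shared between genes. The table has 14 columns of counts, of which 4 match no sample here and were not used. Gene lengths in the deposited table gave CPM per kilobase.

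Genes were kept by edgeR's filterByExpr (minimum count 10, minimum total 15), scaled with TMM factors and compared by edgeR's quasi-likelihood test (edgeR 4.0.16, limma 3.58.1, DESeq2 1.42.0, R 4.3.3) with the group as the only term and all 10 samples. Benjamini-Hochberg adjustment ran over 11870 genes, with a call at an adjusted p below 0.05. Standard errors are the log2 fold change divided by the square root of F. The labels do not say that replicate numbers pair animals. Same-group libraries differed by a chi-square of 10.8 to 37.5 per degree of freedom over 20 pairs, so none was a copy. Floors (3 counts) cover counting error only. The members, the 6 pathway lists, the 7 cell-type marker lists and the interferon genes were chosen with earlier results of these data known. Named were the members, Actn2, up to 4 called rises and 4 called falls per pathway list, and for Inhba and Tgfb2 the 5 most similar genes. Any other gene was picked with its values in view. The alternatives are those in the closing section. Promoter windows are RefSeq's, build GRCm38.p6, the assembly of mm10. Protein sequences were not used here. Some single-gene results are not reported here.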

Additional observations from a re-analysis of the deposited data

Results flagged for a closer look

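In 1 of 56 groups of 5 values examined (the 10 members, Actn2 and the 17 named pathway genes in each genotype), a sample stood apart from the rest, where about 1 in 20 groups does so by chance. For Tgfbr1, knockout 5 had a log2 CPM of 5.83, and its gap to the nearest knockout was 0.873 of the range of the group on that scale. On the linear scale knockout 5 was at 56.8 CPM, from 1004 reads, and the nearest, knockout 3, at 41.7 CPM. Without knockout 5 the log2 fold change of Tgfbr1 was 0.59 (edgeR adjusted p 0.0283), in place of 0.71.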

How the results depend on the processing

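The alternatives were RLE and upper-quartile scaling, library totals alone, no filter, a minimum mean of 5 CPM, a replicate block, an endothelial marker score as a covariate, DESeq2, voom with sample weights and leaving out each animal in turn. The endothelial covariate lowered the calls over all genes from 2241 to 1136 (554 higher and 582 lower, in place of 1216 and 1025) and those among pathway genes from 18 to 9, and the cause was not tested. Leaving out 1 animal gave 1699 to 2258 calls over all genes, 942 to 1271 higher and 757 to 1086 lower, and an Actn2 log2 fold change of -1.44 to -1.35. With library totals alone, 68.9% of the calls were higher, in place of 54.3%. Of the 7 members with a fitted difference, 2 changed sign once each: Inhbb without heterozygote 1 (0.13, range over single animals -0.55 to 0.13) and Tgfb1 with the endothelial covariate (0.48). No other of the 131 member values changed sign, but some moved by more than the standard error of the main fit. Inhba reached 5.70 (5.06, SE 0.39, in the main fit) and Tgfb3 reached 1.17 (0.92, SE 0.18). Of the 17 pathway genes named by rule (Smad5 is not one), 8 kept their call in every setting, and 30 of 321 combinations of gene and setting fell short of the threshold, 9 of them with the endothelial covariate. With the replicate number as a block 2182 genes were called. Same-numbered animals did not deviate together throughout (correlations -0.060 to 0.19, and 2 of 5 pairs were the best match by number). Under this block the calls of Twsg1 (adjusted p 0.0728, range 0.0189 to 0.225) and Smad5 (0.0571, range 0.0300 to 0.186) were lost, no other pathway gene named as called lost its call, and 22 pathway genes were called. Mstn, Fst and Ltbp2 were fitted only without the filter, with log2 fold changes of 0.59 (SE 0.51), 1.92 (SE 0.64) and -0.19 (SE 0.78), and were not among the calls there. Inhbb, Fstl3, Bmp2 and Bmp6 drop out at a minimum mean of 5 CPM.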

Other observations

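Of 8 markers of mural cells (pericytes and smooth muscle), 1 was called, and it rose, beside 10.2% of all tested genes called higher. Cspg4, which encodes the NG2 proteoglycan of pericytes and was named after its value was seen, went from 37.0 ± 6.39 to 132 ± 21.3 CPM (SD, n = 5), a log2 difference of 1.84 (SE 0.14, edgeR adjusted p 1.23e-06). The groups did not overlap, and the call held in all 19 alternatives. The other 7 mural markers, Pdgfrb, Rgs5, Myh11, Notch3, Kcnj8, Abcc9 and Vtn, had log2 fold changes of -0.72 to -0.26 and did not pass. The mural list summed to 541 to 708 CPM in the knockouts and 484 to 718 CPM in the heterozygotes. Of the remaining marker lists, 1 of 10 cardiomyocyte markers (Tnni3) and 1 of 4 tested macrophage markers (Csf1r) were called lower, beside 8.64% of all tested genes. All 4 tested macrophage markers had negative log2 fold changes, from -1.23 to -0.17, and the macrophage sums given above did not overlap. The mesothelial markers summed to 4.06 to 7.64 CPM in the knockouts and 4.05 to 20.5 CPM in the heterozygotes. The 6 blood markers were below the filter on low counts, and 3 of them, all globin genes, had 0 counts in every library.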
